A study of Mus musculus with 18 samples.

Results

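The metallothionein and zinc transport genes described here were 7 genes, Mt1, Mt2, Mt3, Mtf1, Slc30a1, Slc30a4 and Slc39a14, taken by symbol from a table of 53465 genes. All 7 symbols were found once. The libraries came from microglia and macrophages of the contused spinal cord of female C57BL/6J mice aged 8 to 10 weeks, and asked how these cells respond to IL-13 and IL-4 in the lesion. A contusion at thoracic vertebra 11 was given to every mouse, controls included. At 48 h after it, 1 µL was injected into the lesion, which held PBS as vehicle in 3 mice (1, 2 and 3), 100 ng of recombinant IL-13 in 3 mice (5, 6 and 7) or 100 ng of recombinant IL-4 in 3 mice (8, 9 and 10). Cells were collected 24 h later and sorted as CD45low, CD11b+, F4/80+ microglia and CD45high, CD11b+, F4/80+ macrophages, so that each of the 9 mice gave 1 library of each cell type and the 18 libraries formed 6 groups of 3. There was no uninjured group, and a CD45 gate does not separate microglia from macrophages by origin.

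Metallothioneins are small cysteine-rich proteins that bind zinc and copper. Mtf1 encodes the metal-responsive transcription factor, which binds metal response elements when zinc in the cell rises and induces the metallothionein genes and Slc30a1. The SLC30 family (ZnT) moves zinc out of the cytosol, either across the plasma membrane or into vesicles, whereas the SLC39 family (ZIP) brings zinc into the cytosol. In the central nervous system, Mt1 and Mt2 are known as genes that rise in glia after injury, and Mt3 is the form typical of neural tissue.

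Each library held between 35961305 and 45849829 expected counts. The labels were checked with marker lists, summed as CPM (read counts scaled to a common library size) after TMM scaling over the 18 libraries. The 10 microglia markers summed to between 3084 and 12643 CPM in microglia and to between 481 and 4032 CPM in macrophages. The 10 macrophage markers summed to between 2297 and 45275 CPM in microglia and to between 10834 and 150512 CPM in macrophages. On this list, IL-4 microglia (30972 to 45275 CPM) stood above PBS macrophages (10834 to 16168 CPM). The 8 fibroblast and pericyte markers summed to between 226 and 7999.6 CPM in microglia against 0.307 to 9.49 CPM in macrophages, and the 8 endothelial markers to between 886 and 2875 CPM against 45.5 to 429.6 CPM. The 8 neuron markers summed to between 6.37 and 28.8 CPM in microglia and to between 0.0952 and 1.17 CPM in macrophages, and Syt1 was at 0 in all 18 libraries. Marker RNA of other cells was therefore counted in the microglia libraries, although the paper reports a high purity after sorting. The macrophage libraries held such RNA too. There the 9 neutrophil markers summed to between 247 and 3049.7 CPM, against 87.4 to 326 CPM in microglia. In bulk RNA, fewer cells of a type cannot be told apart from less RNA per cell. All values below share these libraries.

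The 3 metallothionein genes lie in a row on the plus strand of chromosome 8, within 27721 bases of GRCm38 in the GENCODE M21 annotation. Mt3 was annotated at chr8:94152607-94154146, Mt2 at chr8:94172664-94173568 and Mt1 at chr8:94179082-94180327. Slc30a1 was at chr1:191906767-191913247, Mtf1 at chr4:124802104-124849800, Slc30a4 at chr2:122681233-122702663 on the minus strand and Slc39a14 at chr14:70303469-70351425 on the minus strand. Counts were taken over all annotated exons of a gene. No stretch of the read length of 76 bases was shared between Mt1, Mt3 or Slc39a14 transcripts and any other gene, so Mt1 and Mt2 reads could be told apart at exact matches. For Mt2, 29.7% of such stretches also occurred, on either strand, in transcripts of the antisense gene Gm45774, and the libraries kept no strand. The same share was 7.26% for Mtf1, 7.52% for Slc30a1 and 1.00% for Slc30a4, each with 1 other gene.

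By median, Mt1 was the most abundant member in both cell types once levels were set per kilobase of merged exons. Its median over the 9 libraries was 107 CPM per kilobase in microglia and 159 CPM per kilobase in macrophages. Mt2 followed, with medians of 52.6 CPM per kilobase in microglia and 25.1 CPM per kilobase in macrophages. In microglia the ranges of Mt1 (78.7 to 342.7) and Mt2 (21.8 to 354.7) overlapped, whereas in macrophages they did not. The other 5 members had medians between 0.815 and 2.11 CPM per kilobase in microglia and between 0.133 and 1.49 CPM per kilobase in macrophages. In microglia their ranges over libraries overlapped, so their order there was not resolved. In macrophages Mt3 was last, with 0.0783 to 0.515 CPM per kilobase, and its range overlapped only that of Slc30a4 and Slc30a1. Mt4, the remaining metallothionein gene of the mouse, which is typical of stratified epithelium, had no count in any of the 18 libraries.

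The levels of Mt1 and Mt2 followed the mouse, and the treatment groups overlapped. In microglia, the Mt1 level was 120.4, 201 and 133 CPM in PBS mice 1, 2 and 3, 102, 427 and 118 CPM in IL-13 mice 5, 6 and 7, and 98.1, 162 and 140.1 CPM in IL-4 mice 8, 9 and 10. In macrophages, it was 142, 238 and 198 CPM with PBS, 194, 345 and 183 CPM with IL-13 and 155, 236 and 229 CPM with IL-4, in the same order of mice. In each treatment and in both cell types, the mouse with the highest Mt1 level was therefore the same (mouse 2, 6 or 9).

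The Mt2 level moved with the same mice over a wider range. In microglia, it was 22.7, 69.0 and 30.9 CPM with PBS, 20.6, 208.5 and 35.6 CPM with IL-13 and 12.8, 54.6 and 19.4 CPM with IL-4. In macrophages, it was 8.77, 20.3 and 16.7 CPM with PBS, 9.50, 59.9 and 14.6 CPM with IL-13 and 6.09, 31.4 and 14.8 CPM with IL-4. Mice 2, 6 and 9 again held the highest level of their group in both cell types, and mice 1, 5 and 8 the lowest. The highest level was 16.2 times the lowest over the 9 microglia libraries and 9.84 times the lowest over the 9 macrophage libraries, against 4.35 and 2.43 times for Mt1.

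**Figure D1:**
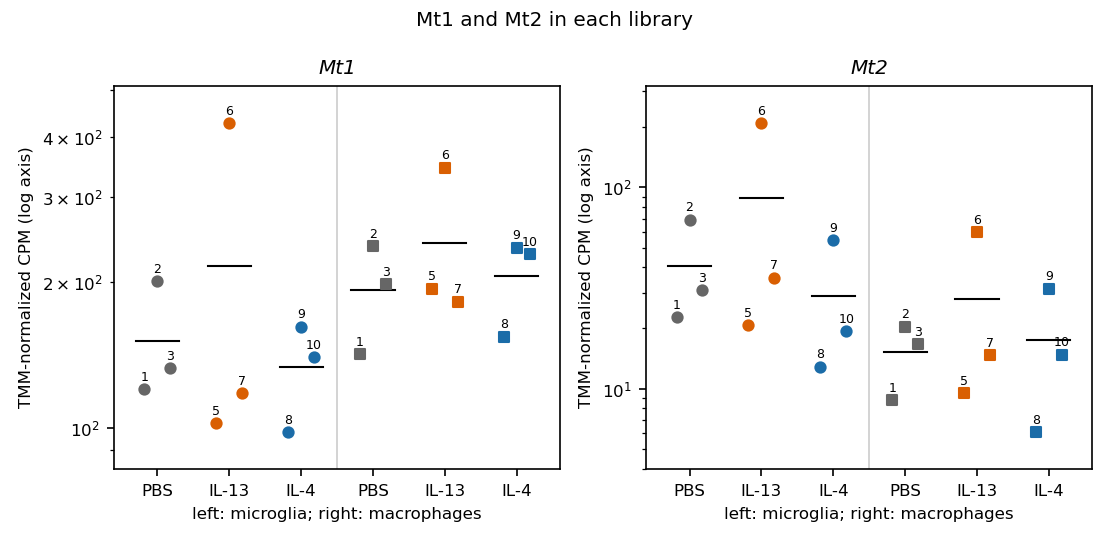
Level of Mt1 and Mt2 (TMM-normalized CPM, log axis) in each library, with microglia as circles, macrophages as squares, the mouse number above each point and the group mean as a bar. Mouse 6 stands at 427 CPM of Mt1 in microglia and 345 CPM in macrophages, above every other library of its cell type, and mice 2 and 9 lead the PBS and IL-4 groups.

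Because both cell types came from the same cords, the level in microglia was set against that in macrophages over the 9 mice, on a log2 scale. This relation was chosen after the levels had been seen, was computed for all 7 members, and its exact permutation p-values (two-sided) are not adjusted. For Mt1, Pearson's r was 0.886 (exact p = 0.00136) and Spearman's rho was 0.883 (exact p = 0.00308). For Mt2, r was 0.935 (exact p = 0.000317) and rho was 0.833 (exact p = 0.00827). After the mean of each treatment was subtracted, r was 0.908 for Mt1 (exact p = 0.0139, mice permuted within treatments) and 0.958 for Mt2 (exact p = 0.00463). Among the 11226 genes with a count in every library the median r was 0.242, and Mt1 and Mt2 stood at the 98.0 and 99.3 percentile of these genes, which share the same mice and libraries and are not independent. Without mouse 6, r was 0.742 for Mt1 (exact p = 0.0339) and 0.863 for Mt2 (exact p = 0.0064). Without the 2 mice farthest from the median, r was 0.693 for Mt1 (mice 6 and 2 left out) and 0.785 for Mt2 (mice 6 and 8 left out). The other 5 members gave r between -0.270 and 0.405, with exact p-values from 0.281 to 0.851. Of these, Slc30a4 gave r = 0.839 without mouse 9 (exact p = 0.0115) and r = 0.895 without mice 9 and 2, the 2 farthest from the median, but with all 9 mice and the treatment means subtracted its r was -0.040 (exact p = 0.917). Mtf1 gave r = -0.657 (exact p = 0.0444) with libraries scaled by their totals alone.

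**Figure D2:**
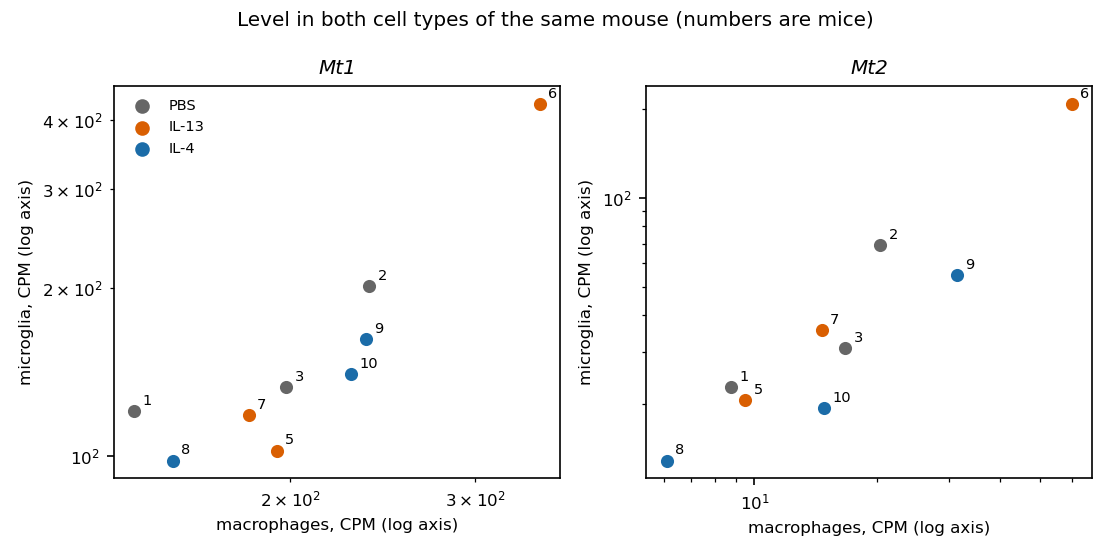
Level of Mt1 and Mt2 in microglia (vertical, CPM, log axis) against macrophages of the same mouse (horizontal, CPM, log axis), with 1 point for each of the 9 mice, coloured by treatment. Mouse 6 is at the upper right in both panels, and r on the log2 scale was 0.886 for Mt1 and 0.935 for Mt2.

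Marker lists differed between the same mice. The summed level of the 9 neutrophil markers in macrophages was 1005, 1608 and 1025 CPM in mice 1, 2 and 3, 579, 3049.7 and 528 CPM in mice 5, 6 and 7, and 247, 855 and 447 CPM in mice 8, 9 and 10, so that mice 2, 6 and 9 were highest here too. In microglia, the sum of this list was lowest in mice 2, 6 and 9, at 163, 87.4 and 113 CPM, and Csf3r carried much of it, at 83.3, 49.1 and 42.9 CPM. Not all of the list did so there, since S100a8 and Mmp8 were highest in mouse 2 among PBS mice (30.8 and 19.2 CPM) and in mouse 9 among IL-4 mice (35.7 and 8.86 CPM). The astrocyte list in microglia summed to 243, 295.5 and 167 CPM with PBS, 151, 417 and 132 CPM with IL-13 and 114, 194.5 and 129.6 CPM with IL-4, so that mice 2, 6 and 9 were again highest. In macrophages, the same list summed to 16.0, 12.97 and 15.7 CPM with PBS, 55.2, 396 and 104 CPM with IL-13 and 54.7, 496 and 167 CPM with IL-4, so that mice 6 and 9 were highest there but mouse 2 was the lowest of the PBS mice. Gja1, a gap junction gene, carried most of the sum in mice 6 and 9 (391 and 491 CPM), whereas Gfap was lowest of its group in the macrophages of mice 2 and 6 (2.20 and 2.46 CPM). The fibroblast and pericyte list in microglia was 2538, 3662 and 2746 CPM with PBS, 1858, 7999.6 and 1291 CPM with IL-13 and 1581, 912 and 226 CPM with IL-4, with mouse 6 far above the rest. In macrophages, this list was at most 9.49 CPM, and mice 2, 6 and 9 were the highest of their groups (7.54, 9.49 and 1.28 CPM). Both sort gates required CD45, CD11b and F4/80, a combination meant to leave out granulocytes, astrocytes and fibroblasts. The microglia list was lowest of its group in mice 2, 6 and 9 in both cell types. It summed to 7280, 3942 and 3084 CPM in microglia and to 2754, 1158 and 481 CPM in macrophages. A list of 10 dissociation stress genes was highest in macrophages of these mice (4634, 4400 and 3523 CPM), but not in microglia. Ptprc, Itgam and Adgre1, the genes of the gate, summed lowest in their microglia (835, 672 and 676 CPM). Among macrophages this held for mouse 9 only. The part of other cells and of these lists in the Mt1 and Mt2 levels was not tested.

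Mt1 and Mt2 are neighbours, and their levels moved together. After the mean of each cell type was subtracted, r between log2 levels of Mt1 and Mt2 over the 18 libraries was 0.923, the highest of 16534 genes for either of them. For Mt1, the non-member genes most like it were Mrps34, Agpat5, Cxcl5, Ubxn8 and Igfbp6, with r from 0.879 down to 0.839. For Mt2, they were Igfbp6, Serpinb2, Ubxn8, Ehd1 and Tgfbi, with r from 0.902 down to 0.880. Igfbp6 encodes a binding protein of insulin-like growth factors, Serpinb2 an inhibitor of plasminogen activators and Cxcl5 a chemokine for neutrophils. Among the members, the zinc importer Slc39a14 was next, with r of 0.764 to Mt2 (rank 63) and 0.593 to Mt1 (rank 531). Mtf1 itself gave r of 0.076 to Mt1 and 0.030 to Mt2, and Slc30a1 gave 0.215 and 0.156. These correlations are descriptions over libraries that share mice.

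To show what lies before these genes, the 250 bases upstream of each gene's RefSeq start (GRCm38.p6, plus strand) are given in lower case, 5′ to 3′. Capitals mark each match to the core of the metal response element, TGCACNC or TGCGCNC with N for any base, searched on both strands.
Mt1, chr8:94178839-94179088: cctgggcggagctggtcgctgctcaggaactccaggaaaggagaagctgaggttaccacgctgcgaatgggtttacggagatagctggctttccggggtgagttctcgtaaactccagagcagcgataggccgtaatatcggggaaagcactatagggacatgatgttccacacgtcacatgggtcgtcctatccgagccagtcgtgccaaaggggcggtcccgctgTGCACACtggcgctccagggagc
Mt2, chr8:94172368-94172617: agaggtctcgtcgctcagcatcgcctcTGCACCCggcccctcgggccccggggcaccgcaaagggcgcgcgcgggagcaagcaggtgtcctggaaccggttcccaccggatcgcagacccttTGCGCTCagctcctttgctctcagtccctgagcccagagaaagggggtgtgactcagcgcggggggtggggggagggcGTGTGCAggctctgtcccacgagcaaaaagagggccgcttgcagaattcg
Mt3, chr8:94152357-94152606: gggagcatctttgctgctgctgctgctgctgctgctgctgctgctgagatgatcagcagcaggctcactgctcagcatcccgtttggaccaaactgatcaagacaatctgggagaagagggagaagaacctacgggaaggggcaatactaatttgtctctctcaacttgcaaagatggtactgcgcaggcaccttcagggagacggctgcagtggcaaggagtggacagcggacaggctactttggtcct
The Mt1 window held 1 match, TGCACAC, from 23 to 17 bases before the start. The Mt2 window held 3 matches, from 223 to 217, from 128 to 122 and, on the other strand, from 50 to 44 bases before the start, and the Mt3 window held none. Of all 32851 such windows in the table, 21.4% held at least 1 match and 1.26% held 3 or more. Slc30a1 had 1 match, Slc30a4 had 2 and Mtf1 had none, and Slc39a14 is named only. GENCODE M21 also starts other Mt1 and Mt2 transcripts further downstream, so bases next to those starts are outside these windows, and a match is not a measured binding site.

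Cytokine treatment did not move Mt1 or Mt2 past the test in either cell type. The effect of IL-4 and of IL-13 was tested against PBS in the 9 libraries of each cell type, and both comparisons share the PBS mice. On the log2 scale, Mt1 after IL-13 stood 0.51 ± 0.50 from PBS (SE, n = 3 against 3, edgeR adjusted p = 1.00) in microglia and 0.33 ± 0.27 (adjusted p = 0.598) in macrophages. Mt2 differed by 1.11 ± 0.86 (adjusted p = 0.975) and 0.88 ± 0.70 (adjusted p = 0.577). These positive values came from mouse 6. Without its library, the value in microglia became -0.45 for Mt1 and -0.53 for Mt2, and in macrophages -0.015 for Mt1 and -0.32 for Mt2. After IL-4, Mt1 differed by -0.16 ± 0.50 (adjusted p = 0.948) in microglia and 0.10 ± 0.27 (adjusted p = 0.861) in macrophages, and Mt2 by -0.47 ± 0.86 (adjusted p = 0.893) and 0.19 ± 0.70 (adjusted p = 0.898). The 95% intervals for Mt2 after IL-4 ran from -2.39 to 1.45 in microglia and from -1.36 to 1.73 in macrophages.

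The ratio of Mt2 to Mt1, which needs no scaling between libraries, separated the cell types within every mouse. The ratio of counts was 0.189, 0.343 and 0.233 in microglia of mice 1, 2 and 3 and 0.0617, 0.0855 and 0.0842 in their macrophages. With IL-13 it was 0.202, 0.488 and 0.301 in microglia and 0.0489, 0.174 and 0.0801 in macrophages, and with IL-4 it was 0.131, 0.337 and 0.138 against 0.0394, 0.133 and 0.0647. The microglia ratio was higher in 9 of 9 mice, by 2.14 to 4.12 times. The mean log2 difference was 1.63 ± 0.32 (SD, n = 9 mice, 3.10 times), and an exact sign-flip test (two-sided) gave p = 0.00391, the smallest that 9 mice allow. The test was chosen after the levels had been seen. The part of RNA of other cells, and of the Mt2 stretches shared with Gm45774, in this ratio was not tested. The difference was 1.70 ± 0.28 with PBS, 1.82 ± 0.29 with IL-13 and 1.39 ± 0.32 with IL-4 (SD, n = 3 each), and whether the treatments differed in it was not tested.

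**Figure D3:**
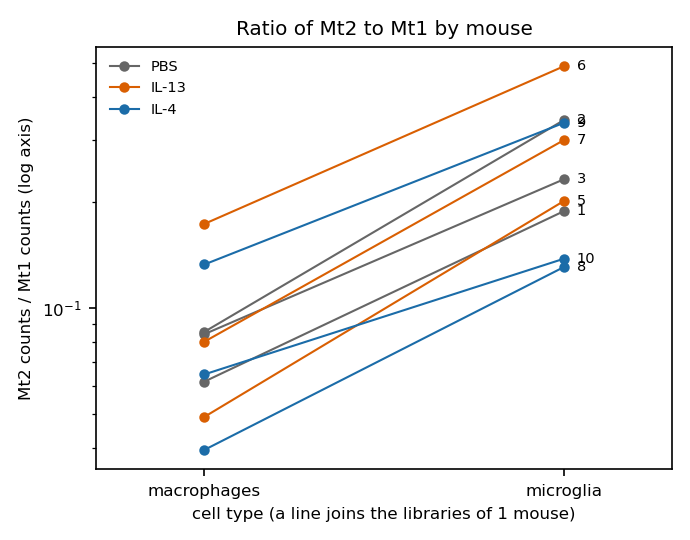
Ratio of Mt2 counts to Mt1 counts (log axis) in macrophages and microglia, with a line for each of the 9 mice, coloured by treatment and numbered. All 9 lines rise from macrophages to microglia, by 2.14 to 4.12 times.

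Between cell types, Mt3 was the member that differed most. In microglia, the Mt3 level was 2.25, 3.84 and 2.87 CPM with PBS, 1.19, 2.68 and 2.47 CPM with IL-13 and 1.62, 1.45 and 0.734 CPM with IL-4. In macrophages, it was 0.141, 0.549 and 0.139 CPM, 0.135, 0.234 and 0.0834 CPM, and 0.0952, 0.235 and 0.307 CPM, which rested on 3 to 18 counts per library. Every microglia library was above every macrophage library, and the macrophage values were near the counting limit.

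Microglia and macrophages of the same treatment were compared in a fit over all 18 libraries. In PBS mice, 1 of the 7 members was higher in microglia, among 15.7% of 16535 genes called higher, and none was lower, among 9.90% called lower. In IL-13 mice, 1 was higher (16.8% of genes) and none lower (12.7%), and in IL-4 mice 1 was higher (15.2%) and none lower (12.5%). In all 3 cases the member was Mt3, so the members' share of calls was close to that of all genes tested for higher levels and below it for lower levels. The Mt3 log2 fold change was 3.42 ± 0.83 (SE, 10.7-fold, edgeR adjusted p = 0.00589) with PBS, 3.78 ± 0.85 (13.8-fold, adjusted p = 0.00312) with IL-13 and 2.57 ± 0.81 (5.92-fold, adjusted p = 0.0259) with IL-4. With the mouse as a block, the IL-4 value was 2.61 and the call was lost (adjusted p = 0.0772). It was also lost with all genes that had any count (2.61, adjusted p = 0.0635) and with only the 6 libraries compared (2.59, adjusted p = 0.0719). Without mouse 8 (2.06, adjusted p = 0.149) or mouse 9 (2.53, adjusted p = 0.0975) the IL-4 call was lost too, and the PBS call without mouse 1 (3.28, adjusted p = 0.0527) or mouse 3 (3.13, adjusted p = 0.0700). The part of other neural cells in the Mt3 level was not tested; of the astrocyte markers, Gfap was at 5.10 to 52.2 CPM in microglia against 1.50 to 5.68 CPM in macrophages, and Aqp4 was at 0 in 6 of the 9 microglia libraries.

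Mt2 was higher in microglia than in macrophages of every mouse, but the test without pairing did not call it. The log2 fold change was 1.42 ± 0.88 (adjusted p = 0.263) with PBS, 1.65 ± 0.88 (adjusted p = 0.172) with IL-13 and 0.73 ± 0.86 (adjusted p = 0.583) with IL-4. With the mouse as a block, Mt2 passed in all 3 treatments, at 1.34 (adjusted p = 0.00105), 1.40 (adjusted p = 0.000732) and 0.75 (adjusted p = 0.0270). The PBS value also passed with only the 6 libraries compared (1.40, adjusted p = 0.0312). For Mt1, the unpaired values were -0.35 ± 0.44 (adjusted p = 0.626) with PBS, -0.16 ± 0.44 (adjusted p = 0.833) with IL-13 and -0.63 ± 0.44 (adjusted p = 0.315) with IL-4, and with the block Mt1 was lower in microglia of IL-4 mice only, at -0.63 (adjusted p = 0.0378). The IL-13 value of Mt1 became 0.30 when libraries were scaled by their totals alone. Scaling by totals raised the median log2 fold change of all genes in these comparisons from 0.11, 0.06 and 0 to 0.39, 0.50 and 0.17, in the order PBS, IL-13, IL-4.

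After cytokine injection, the Mt3 level in microglia was lower in all 3 IL-4 mice than in any PBS mouse, at a mean of 1.27 ± 0.47 CPM against 2.99 ± 0.80 CPM (SD, n = 3 each). The log2 fold change of -1.21 ± 0.77 did not pass (adjusted p = 0.520). For IL-13 it was -0.49 ± 0.76 (adjusted p = 1.00), and the groups overlapped. The neuron list in the same libraries summed to between 18.7 and 28.8 CPM with PBS, 9.50 and 22.2 CPM with IL-13 and 6.37 and 9.38 CPM with IL-4, and its part in the Mt3 level was not tested. In macrophages, Mt3 was too low to be tested between treatments.

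Slc30a4, which encodes the zinc exporter ZnT4 of vesicle membranes, was the only member called between treatments. In macrophages, its level was 2.21, 3.11 and 1.25 CPM in PBS mice, 8.32, 3.34 and 6.92 CPM in IL-13 mice and 9.04, 8.22 and 5.84 CPM in IL-4 mice. All IL-4 and all IL-13 macrophage libraries were above all PBS macrophage libraries, with mouse 6 close to the highest PBS mouse. The log2 fold change was 1.82 ± 0.41 (SE, 3.53-fold, edgeR adjusted p = 0.0156) for IL-4 and 1.51 ± 0.41 (2.85-fold, adjusted p = 0.0709) for IL-13. The IL-4 call was lost without PBS mouse 1 (1.82, adjusted p = 0.0546), without PBS mouse 3 (1.54, adjusted p = 0.0584) and with all 18 libraries in 1 model (1.81, adjusted p = 0.0793). The IL-13 value passed in DESeq2 (1.50, adjusted p = 0.00566), with all genes that had any count (1.51, adjusted p = 0.0170) and without mouse 6 (1.82, adjusted p = 0.0197). IL-4 and IL-13 macrophages differed by 0.31 ± 0.39 (adjusted p = 0.846). Marker lists moved with treatment in the same macrophage libraries. The microglia list summed to between 2754 and 4032 CPM with PBS and between 481 and 844 CPM with IL-4, and the endothelial list to between 45.5 and 53.8 CPM and between 205 and 429.6 CPM. With IL-13, the microglia list summed to between 1158 and 2334 CPM and the endothelial list to between 134 and 218 CPM. Other lists were also lower with IL-4 than with PBS, among them the neutrophil (247 to 855 against 1005 to 1608 CPM) and dissociation stress lists (2486 to 3523 against 4127 to 4634 CPM). The astrocyte list was higher (54.7 to 496 against 12.97 to 16.0 CPM). The part of these lists in the Slc30a4 level was not tested.

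In microglia, the Slc30a4 level was 5.38, 5.26 and 6.76 CPM with PBS, 13.2, 11.1 and 16.2 CPM with IL-13 and 21.03, 2.37 and 14.3 CPM with IL-4. All IL-13 libraries and the IL-4 libraries of mice 8 and 10 were above all PBS libraries, whereas the IL-4 library of mouse 9 was below them. The log2 fold change was 1.22 ± 0.63 (adjusted p = 0.745) for IL-13 and 1.13 ± 0.63 (adjusted p = 0.433) for IL-4, so neither passed. Between cell types, Slc30a4 differed by 1.41 ± 0.57 (adjusted p = 0.0834) with PBS, 1.12 ± 0.56 (adjusted p = 0.147) with IL-13 and 0.70 ± 0.56 (adjusted p = 0.383) with IL-4, in microglia against macrophages. The PBS value passed in DESeq2 (1.44, adjusted p = 0.0442), with library totals (1.69, adjusted p = 0.0329) and with only the 6 libraries compared (1.38, adjusted p = 0.0258). The IL-13 value passed with library totals (1.56, adjusted p = 0.0393), and without mouse 9 the fit called both the PBS value (1.40, adjusted p = 0.0184) and the IL-13 value (1.12, adjusted p = 0.0449).

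Slc30a1 encodes ZnT1, the zinc exporter of the plasma membrane, and is a known target of the factor encoded by Mtf1. In macrophages its level was narrow with PBS and IL-13 but spread 3.14 times with IL-4, at 2.86, 2.59 and 2.86 CPM with PBS, 2.53, 2.02 and 2.42 CPM with IL-13 and 5.00, 1.59 and 4.23 CPM with IL-4. In microglia, it was 5.70, 5.85 and 4.16 CPM with PBS, 0.726, 7.29 and 18.1 CPM with IL-13 and 2.10, 5.09 and 5.33 CPM with IL-4. The IL-13 microglia of mice 5 and 7 were the lowest and the highest of all 18 libraries, 24.9 times apart, on 31 and 923 counts. The IL-13 macrophages were all below the PBS macrophages, and the log2 fold change was -0.25 ± 0.39 (adjusted p = 0.808), and the IL-4 macrophages differed by 0.38 ± 0.38 (adjusted p = 0.577). In microglia, IL-13 gave 0.74 ± 0.89 (adjusted p = 1.00) and IL-4 gave -0.30 ± 0.89 (adjusted p = 0.943). Against macrophages, microglia differed by 0.92 ± 0.73 (adjusted p = 0.405) with PBS, 1.91 ± 0.75 (adjusted p = 0.0666) with IL-13 and 0.21 ± 0.72 (adjusted p = 0.880) with IL-4. The IL-13 value passed in DESeq2 (1.96, adjusted p = 0.0264), with library totals (2.39, adjusted p = 0.0287), with at least 10 counts in every library (2.01, adjusted p = 0.0363) and without mouse 5 (2.51, adjusted p = 0.0129).

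The genes most like Slc30a1 over the 18 libraries, after the mean of each cell type was subtracted, were Otulin, C2cd2l, Ncoa6, Synpo2 and Ptpn4, with r from 0.942 down to 0.796. The nearest other member was Mt3, with r of 0.256 (rank 3253).

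Slc39a14 encodes ZIP14, a plasma membrane importer of zinc and iron that inflammatory signals induce in liver. In macrophages, its level was 20.6, 16.1 and 15.2 CPM with PBS, 7.31, 36.4 and 14.4 CPM with IL-13 and 7.16, 23.1 and 15.7 CPM with IL-4. In microglia, it was 4.79, 19.8 and 18.4 CPM with PBS, 12.5, 26.3 and 6.80 CPM with IL-13 and 2.35, 11.2 and 1.63 CPM with IL-4. Mouse 6 was again the highest in both cell types, and mouse 9 led the IL-4 group in both. IL-4 against PBS gave -1.47 ± 0.84 (adjusted p = 0.450) in microglia and -0.18 ± 0.53 (adjusted p = 0.865) in macrophages, and IL-13 gave 0.08 ± 0.82 (adjusted p = 1.00) and 0.17 ± 0.52 (adjusted p = 0.918). With IL-4, microglia differed from macrophages by -1.59 ± 0.76 (adjusted p = 0.131), a difference that passed with the mouse as a block (-1.94, adjusted p = 0.0327) and without mouse 9 (-2.52, adjusted p = 0.0412). With PBS and IL-13, the cell types differed by -0.27 ± 0.74 (adjusted p = 0.843) and -0.35 ± 0.74 (adjusted p = 0.771), values that became 0.022 and 0.08 when libraries were scaled by totals alone.

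Mtf1 was the steadiest member in macrophages. Its level there was 12.1, 10.98 and 10.1 CPM with PBS, 12.0, 10.6 and 12.0 CPM with IL-13 and 11.9, 11.3 and 11.6 CPM with IL-4, a range of 1.19 times over 9 libraries. In microglia, it was 6.12, 8.39 and 8.67 CPM with PBS, 8.78, 6.87 and 7.26 CPM with IL-13 and 3.40, 5.43 and 11.5 CPM with IL-4, a range of 3.39 times. Microglia were below macrophages with PBS and with IL-13 without overlap, by log2 fold changes of -0.52 ± 0.34 (adjusted p = 0.298) and -0.59 ± 0.34 (adjusted p = 0.205). With IL-4 the difference was -0.77 ± 0.34 (adjusted p = 0.102), and without mouse 10 it was -1.40 and passed (adjusted p = 0.00651).

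**Figure D4:**
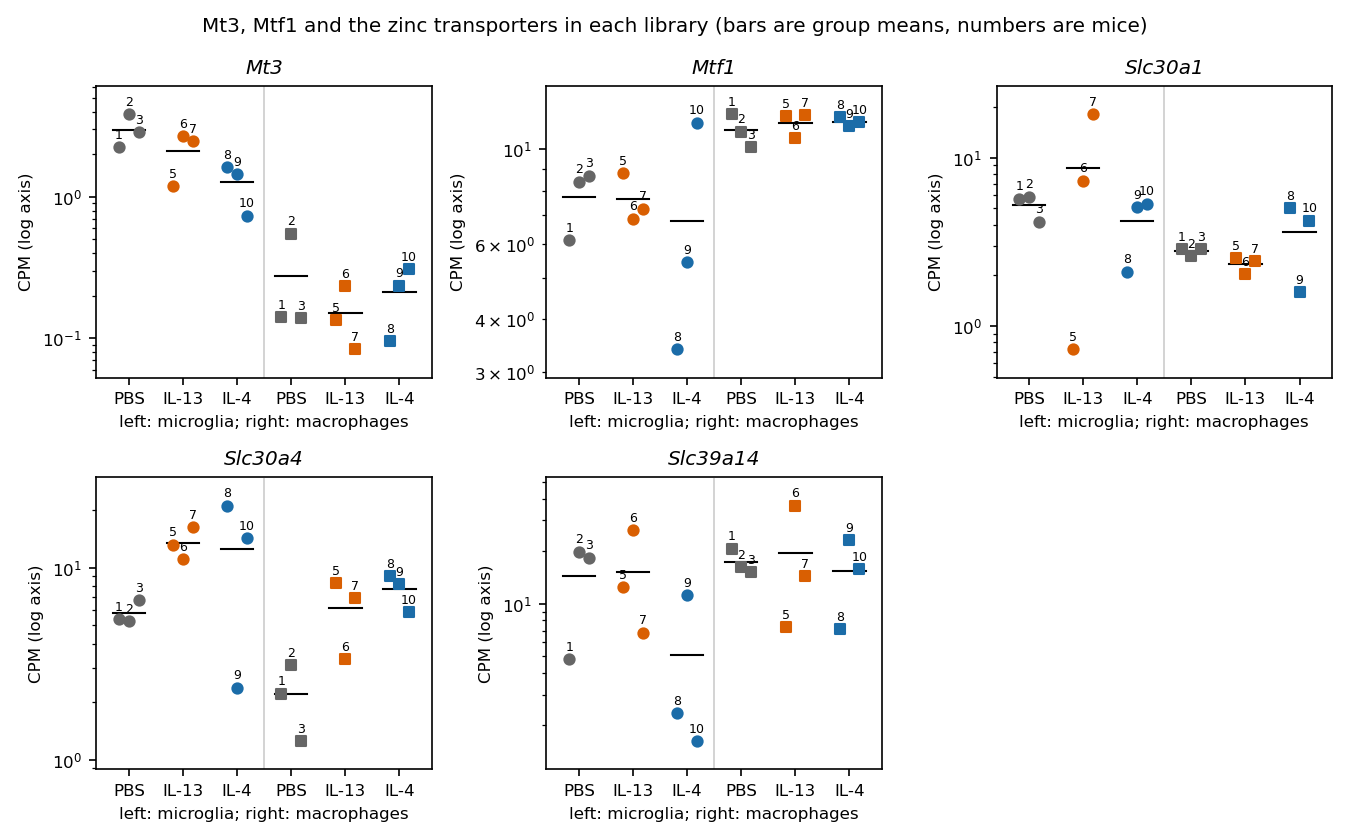
Level of Mt3, Mtf1, Slc30a1, Slc30a4 and Slc39a14 (CPM, log axis) in each library, with microglia as circles, macrophages as squares, mouse numbers above the points and group means as bars. Mt3 is higher in all microglia libraries than in any macrophage library, Slc30a4 macrophages of both cytokines lie above the PBS macrophages at 1.25 to 3.11 CPM, and Mtf1 in macrophages stays between 10.1 and 12.1 CPM.

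Counted over the members, few calls were made between treatments. In microglia, IL-4 against PBS gave 0 of 7 members by edgeR, 0 at an unadjusted p under 0.05 and 0 by DESeq2, where 2.22% of all 15566 genes tested passed. IL-13 against PBS gave 0 of 7 by each of these counts (0.366% of genes), and so did IL-4 against IL-13 (0.0385% of genes). In macrophages, IL-4 against PBS gave 1 of 6 higher, Slc30a4 (6.77% of 13606 genes), and 0 lower (7.20%). IL-13 against PBS gave 0 higher (2.53%) and 0 lower (1.66%) by edgeR, with 1 member, Slc30a4, at an unadjusted p under 0.05 and called by DESeq2. IL-4 against IL-13 gave 0 of 6 by edgeR, at an unadjusted p under 0.05 and by DESeq2 (0.250% of genes). The median log2 fold change of the members was -0.30 for IL-4 and 0.51 for IL-13 in microglia, beside -0.06 and -0.00082 over all genes, and 0.14 and 0.25 in macrophages, beside 0.019 and 0.0050.

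An interaction term in the fit of all 18 libraries asked if microglia and macrophages responded unequally. For IL-4, 0 of 7 members passed by edgeR, 0 had an unadjusted p under 0.05 and 0 passed in DESeq2 (0.992% of genes), with a smallest adjusted p of 0.721. For IL-13, the same 3 counts were 0 (0.0242% of genes), with adjusted p-values of 1.00 for all 7.

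By edgeR, further zinc genes were called between treatments in macrophages, where more of all genes were called as well than in microglia. Of 22 further genes (Mt4, 8 of the SLC30 family and 13 of the SLC39 family), 17 were tested in microglia and 16 in macrophages. In macrophages, IL-4 raised 4 of 16 (6.77% of all genes tested) and lowered 1 (7.20%). Slc39a7, which releases zinc from the endoplasmic reticulum and Golgi, rose by 0.71 ± 0.13 on the log2 scale (adjusted p = 0.00450), from 184 to 301 CPM. Slc30a7, which loads zinc into the Golgi, rose by 0.63 ± 0.12 (adjusted p = 0.00565), and Slc39a13, a further ZIP of intracellular membranes, rose by 0.78 ± 0.16 (adjusted p = 0.0103). The fourth was Slc39a12 (adjusted p = 0.0239), which had at most 1 count in a PBS library and up to 45 in an IL-4 library, so no fold is given, and its call was lost without any 1 of 5 libraries. Slc39a8, an importer of zinc and manganese in the plasma membrane, fell by 1.33 on the log2 scale (SE 0.23, adjusted p = 0.00398), from 11.4 to 4.54 CPM. The calls of Slc30a7, Slc39a13 and Slc39a12 were lost with all 18 libraries in 1 model (adjusted p = 0.0722, 0.0924 and 0.401). The microglia and endothelial lists moved between the same libraries, as given above for Slc30a4, and their part in these levels was not tested. After IL-13, 1 of 16 rose (2.53% of all genes), namely Slc39a7 (0.52 ± 0.12, adjusted p = 0.0484), and its call was lost without any 1 of the 9 libraries, with adjusted p-values from 0.0508 to 0.190. It was lost as well with DESeq2's size factors (adjusted p = 0.0508), any count (0.0807), only the 6 libraries compared (0.0912), all 18 libraries in 1 model (0.136) and library totals (0.167). It was kept in DESeq2 (0.51, adjusted p = 0.00282) and with at least 10 counts in every library (0.50, adjusted p = 0.0487), and the log2 fold change was between 0.40 and 0.59 in all of these settings. In microglia, 0 of 17 passed by edgeR for IL-4 (2.22% of all genes) or IL-13 (0.366%) against PBS, with 5 at an unadjusted p under 0.05 and 2 by DESeq2 for IL-4, and 1 and 1 for IL-13. The interaction called 0 of 17 by edgeR for IL-4 (0.992% of all genes), with 4 at an unadjusted p under 0.05, 1 by DESeq2 and a smallest adjusted p of 0.155. For IL-13, all 3 counts were 0 (0.0242% of all genes), with a smallest adjusted p of 0.991, so a difference between cell types in these responses was not shown by edgeR.

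Between cell types, 3 of the 17 further genes were higher in microglia (15.7% of all genes) and 3 lower (9.90%) with PBS. With IL-13, 2 were higher (16.8%) and 3 lower (12.7%), and with IL-4, 2 were higher (15.2%) and 8 lower (12.5%). Slc39a8 was higher in microglia by 2.11 ± 0.37 (adjusted p = 0.000445), 2.62 ± 0.38 (adjusted p = 6.31e-05) and 2.95 ± 0.38 (adjusted p = 2.44e-05) in the order PBS, IL-13, IL-4. The zinc importer Slc39a10 was higher by 1.54 ± 0.43 (adjusted p = 0.0154) with PBS, 1.81 ± 0.44 (adjusted p = 0.00515) with IL-13 and 2.59 ± 0.45 (adjusted p = 0.000378) with IL-4. Slc39a7 was lower in microglia by -0.50 ± 0.15 (adjusted p = 0.0208), -0.70 ± 0.15 (adjusted p = 0.00224) and -1.12 ± 0.15 (adjusted p = 3.39e-05). Slc30a7 was lower with IL-13 (-0.98 ± 0.20, adjusted p = 0.00131) and with IL-4 (-0.92 ± 0.20, adjusted p = 0.00224), and Slc39a11 with PBS (-1.10 ± 0.32, adjusted p = 0.0178), IL-13 (-1.41 ± 0.32, adjusted p = 0.00346) and IL-4 (-0.92 ± 0.32, adjusted p = 0.0413). When libraries were scaled by totals alone, all 3 lower calls with PBS were lost (Slc39a6 -0.46, Slc39a7 -0.22 and Slc39a11 -0.82, adjusted p = 0.225, 0.378 and 0.0792), as were those of Slc39a7 (-0.26) and Slc30a7 (-0.54) with IL-13 and 3 of the 8 with IL-4, among them Slc39a11 (-0.69, adjusted p = 0.136). The IL-4 call of Slc39a11 was also lost with DESeq2's size factors (adjusted p = 0.0562), with at least 10 counts in every library (adjusted p = 0.0513) and without mouse 1, 2, 3, 7, 8 or 10 (adjusted p from 0.0584 to 0.269). The PBS call of Slc39a7 was lost with at least 10 counts in every library too (adjusted p = 0.0552). Leaving out a mouse also ended the PBS call of Slc39a10 (mouse 1, 2 or 3, adjusted p from 0.0653 to 0.104), Slc39a7 (mouse 1 or 3, adjusted p = 0.244 and 0.118) and Slc39a11 (mouse 1 or 3, adjusted p = 0.133 and 0.135), and the IL-13 call of Slc39a10 (mouse 7, adjusted p = 0.0944).

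**Figure D5:**
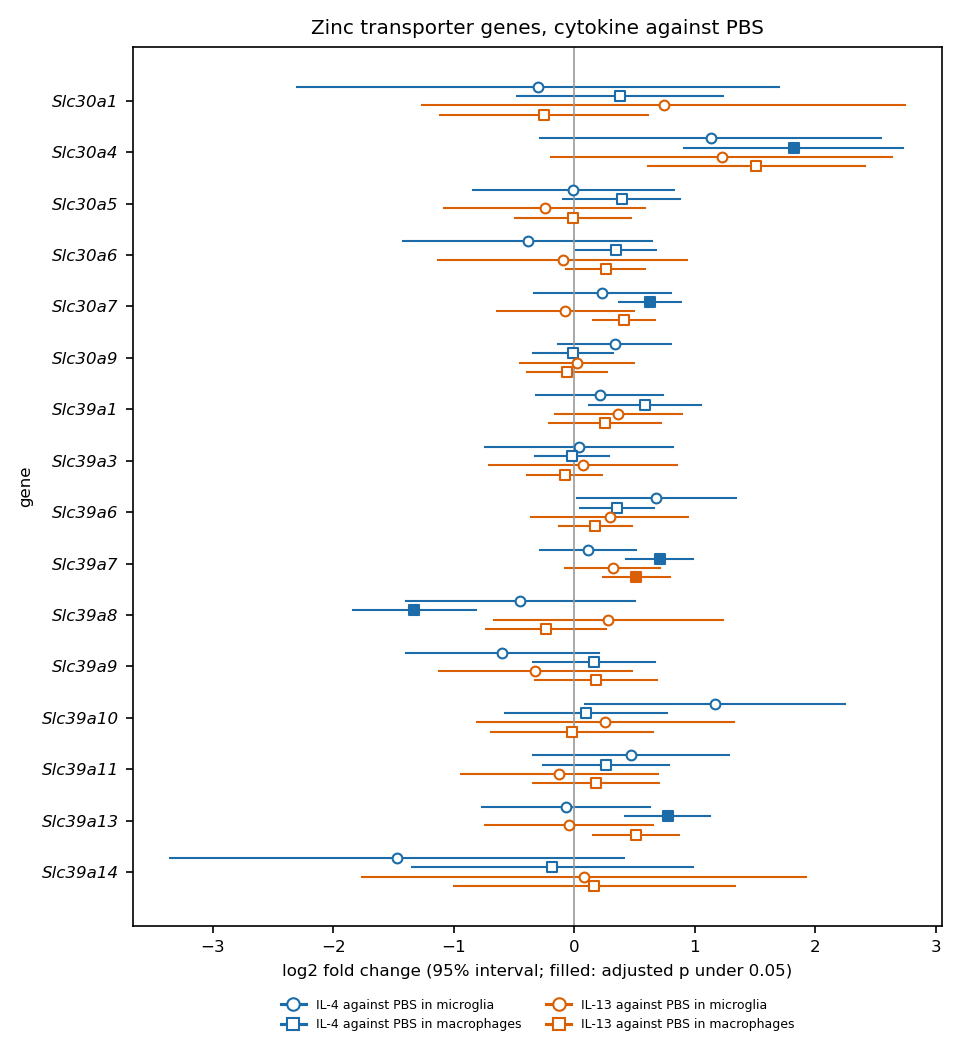
Log2 fold change of cytokine against PBS (horizontal, with 95% intervals) for the 3 zinc transporter genes among the members and the others tested in macrophages with a mean level of at least 2 CPM over the 6 groups, with microglia as circles, macrophages as squares, IL-4 in blue and IL-13 in orange; filled symbols passed an adjusted p of 0.05. The filled symbols are all in macrophages, with Slc30a4 at 1.82 and Slc39a8 at -1.33 after IL-4.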

How the data were processed

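Microglia and macrophages of 9 mice were measured by bulk SMART-seq2, which amplifies cDNA without molecular identifiers or strand. The authors mapped reads to GRCm38 with STAR 2.5.3a and deposited expected counts per gene from RSEM 1.3.0, not normalized. RSEM shares out reads that fit more than 1 gene. Groups and mouse numbers were taken from the labels, and 3 mice form each group.

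The 7 members, the marker lists and the wider list of 22 zinc genes were chosen with earlier results of these data known. Of the wider list, at most the 4 genes with the lowest adjusted p are named per comparison, plus any where 5 or fewer passed. Slc39a11 with IL-4, Slc39a6 with PBS, Slc30a10, Slc39a2 and Slc39a4 are named outside this rule, chosen after their values were seen. For Mt1, Mt2 and Slc30a1 the 5 most correlated non-member genes are named (log2 of CPM plus 0.1). Levels are CPM with TMM factors over 18 libraries, computed here from the deposited expected counts. Each fit was edgeR 4.0.16 (R 4.3.3) with its quasi-likelihood test, TMM, edgeR's filter on low counts and Benjamini-Hochberg adjustment over all genes tested (threshold 0.05). Treatments were compared in the 9 libraries of a cell type, and cell types and interactions in all 18. The study's own model, DESeq2, was an alternative (version 1.42.0), with other scalings, filters of any count or of at least 10 counts in every library, other sets of libraries, the mouse as a block and each library left out. Same-numbered libraries are from the same mouse, which is where the pairing comes from; their deviations from group means correlated by 0.026 to 0.10 over 16535 genes. On simulated counts, a log2 change of 2 was recovered for 94 of 100 genes in microglia, 95 of 100 in macrophages and 94 of 100 between cell types, and for 60 of 100 in the interaction with IL-4. The simulation gave all genes 1 common spread and changed only genes with counts well above the floor. The shares recovered need not hold for members that varied more between mice, or for Mt3 in macrophages. Positions and exon lengths came from GENCODE M21, upstream sequences from RefSeq (6 of 7 members matched). In the treatment tests, p-values measure the spread between mice. The main fits between cell types and for interactions took the 18 libraries as independent, although each mouse gave a library of both cell types. The block fits and the sign-flip test used differences within mice, and the correlation p-values came from permuting mice.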

Additional observations from a re-analysis of the deposited data

How the results depend on the processing

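The number of members called depended on the processing. For IL-13 against PBS in macrophages it was 0, and 1 in DESeq2 or with all genes that had any count, and for IL-4 it was 1, and 0 with all 18 libraries in 1 model. Between cell types the main count was 1 in each treatment. With PBS it was 2 in DESeq2, 2 with library totals, 2 with the mouse as a block, 3 with only the 6 libraries compared and 0 with at least 10 counts in every library. With IL-13 it was 2 in DESeq2, 3 with library totals and 2 with the block. With IL-4 it was 0 with any count, 0 with only the 6 libraries compared, 0 with at least 10 counts and 3 with the block. The filter of at least 10 counts did not test Mt3, whose macrophage libraries hold as few as 3. The block changed no other call of the 7 members than those given above. Of the further zinc genes called between cell types, it ended the calls of Slc30a10 with PBS (adjusted p = 0.0585) and of Slc39a2 and Slc39a4 with IL-4 (adjusted p = 0.105 and 0.0603). With library totals, Slc39a14 turned to 0.022 with PBS and 0.080 with IL-13, and Mt1 to 0.30 with IL-13, between cell types. The cause was not tested.

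With each library or mouse left out in turn, the count ranged from 0 to 1 for IL-13 and for IL-4 against PBS in macrophages, from 0 to 2 between cell types with PBS and with IL-4, and from 1 to 2 with IL-13. Log2 fold changes that changed sign are given as ranges. For Mt1 they were -0.45 to 0.85 (IL-13 against PBS), -0.33 to 0.094 (IL-4 against PBS) and -1.01 to 0.29 (IL-4 against IL-13) in microglia, -0.015 to 0.50, -0.083 to 0.27 and -0.37 to 0.11 in macrophages, and -0.78 to 0.044 between cell types with IL-13. For Mt2, in the same order, they were -0.53 to 1.71, -1.33 to 0.13 and -2.43 to 0.060 in microglia and -0.32 to 1.29, -0.56 to 0.60 and -1.43 to 0.50 in macrophages. For Slc30a1 they were -0.39 to 1.29, -0.51 to 0.014 and -1.59 to 0.082 in microglia and -0.31 to 0.90 between cell types with IL-4. For Slc30a4 in microglia the range was -0.70 to 0.41 (IL-4 against IL-13). For Slc39a14 the ranges were -0.57 to 0.43 (IL-13 against PBS) in microglia, -0.65 to 0.56, -0.61 to 0.17 and -0.77 to 0.47 in macrophages and -0.63 to 0.29 between cell types with PBS. For Mt3, r between cell types ranged from -0.46 to 0.459.

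With 3 mice a group, the spread over the 9 microglia libraries was 4.35-fold for Mt1 and 24.9-fold for Slc30a1, which limits what the tests in microglia could call. Mt3 in macrophages was limited by counts of 3 to 18. RNA input varied between libraries and could not be assigned to them.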
